A study of Rattus norvegicus with 10 samples.

Results

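The genes described here are Ptpn2, Pdpk1, Rela, Pparg and Ppard, 5 genes of insulin, leptin, inflammatory and lipid sensing, and the 10 regions that the deposited methylation table names for them, out of 8957 regions in all. The members were found by gene name alone: Ppard had 3 regions, Ptpn2, Pdpk1 and Pparg had 2 each, and Rela had 1. The 5 genes were, however, chosen by the group differences in level already seen in these animals, and every region in the table had been selected on a difference between the same groups by the authors. The values below are therefore a description of the regions and not a test of them.

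The material was DNA of the hypothalamic arcuate nucleus (Arc) from 10 Wistar rats. In 5 of them the father had eaten chow (Paternal C) and in 5 a high-fat diet (Paternal HF). The fathers of both groups had arrived at postnatal day 21. All mothers were chow-fed, each male being mated at postnatal days 90 to 100, and litters were cut to at most 8 pups on day 2. Chow was the food of all 10 pups up to day 35, and a high-fat challenge followed until day 70, when tissue was taken, so there is no offspring group kept on chow among them and paternal diet is the labelled difference. Sire, litter and sex of each animal are not given, so whether littermates are among the 5 of a group is unknown. The columns 22HFB and 22HFR share a leading number, as do 6HFBB and 6HFB, and whether it marks a shared litter is not given; if it did, each n of 5 would stand for 4 litters. Reduced representation bisulfite sequencing, which reads cytosine methylation in CpG-rich restriction fragments, was the assay, and the value analysed is the average methylation level of a region in an animal, in percent. A dissected nucleus holds many cell types, so a level of a few percent in few cells of one kind and in few copies of every kind cannot be told apart.

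As background, insulin and leptin reach the arcuate nucleus from the blood and act there through receptors that signal by PI3K and by Jak kinases and Stat factors. Ptpn2 encodes a tyrosine phosphatase (TCPTP) that takes phosphate off the insulin receptor and off Jak and Stat proteins, and in mouse neurons it restrains both hormones. Pdpk1 encodes the kinase that activates Akt below PI3K. Rela encodes p65, the transactivating subunit of NF-kB, the factor of inflammatory signalling that high-fat feeding engages in the rodent hypothalamus. Pparg and Ppard encode nuclear receptors for fatty acids and their derivatives, which bind DNA together with retinoid X receptors. CpG-rich promoters are as a rule almost free of methylation.

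Of the 10 regions, 6 lay within 500 bases of a start site (56.1% of all regions did), so the promoter sequences of the genes are shown first. RefSeq (build GRCr8) gave a promoter for 4 of the 5 genes, 5 sequences in all, and none was in the table for Ppard. Each line below holds the 250 bases before a start site, with CpG dinucleotides, the sites that can be methylated, in capitals. The build of the deposited regions is not given in the sources used here, so the regions are not placed on these lines. By the deposited distances, the Rela region centre lay 7 bases after, the upstream Ptpn2 region 64 bases before and the Pdpk1 first-intron region 181 bases after the start. The Ptpn2 intron region lay 135 bases after its start, and the Pparg regions 92 bases after and 465 bases before theirs. Only the upstream Ptpn2 region was thus centred within the 250 bases before its start. The counts below describe these windows and not the measured regions.
Rela, chr1:212354086-212354335, plus strand: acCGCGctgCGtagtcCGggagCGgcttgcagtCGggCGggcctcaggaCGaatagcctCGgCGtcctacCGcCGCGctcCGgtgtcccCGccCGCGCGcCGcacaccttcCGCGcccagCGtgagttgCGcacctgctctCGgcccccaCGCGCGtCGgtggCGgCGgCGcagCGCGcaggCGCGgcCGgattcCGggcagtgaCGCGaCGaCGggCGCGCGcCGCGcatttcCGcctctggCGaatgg
Pdpk1, chr10:13679176-13679425, minus strand: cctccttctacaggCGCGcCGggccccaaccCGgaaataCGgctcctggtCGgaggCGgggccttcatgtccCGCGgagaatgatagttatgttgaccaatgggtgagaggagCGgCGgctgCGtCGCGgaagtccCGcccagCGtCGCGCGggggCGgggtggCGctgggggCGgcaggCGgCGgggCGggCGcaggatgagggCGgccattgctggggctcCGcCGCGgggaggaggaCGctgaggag
Ptpn2, chr18:63564482-63564731, minus strand: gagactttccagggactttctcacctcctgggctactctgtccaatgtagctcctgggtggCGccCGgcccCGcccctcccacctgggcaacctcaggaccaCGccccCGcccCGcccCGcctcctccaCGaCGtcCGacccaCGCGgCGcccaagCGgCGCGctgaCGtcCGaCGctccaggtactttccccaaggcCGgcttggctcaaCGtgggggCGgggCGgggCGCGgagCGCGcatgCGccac
Pparg, chr4:150096808-150097057, plus strand: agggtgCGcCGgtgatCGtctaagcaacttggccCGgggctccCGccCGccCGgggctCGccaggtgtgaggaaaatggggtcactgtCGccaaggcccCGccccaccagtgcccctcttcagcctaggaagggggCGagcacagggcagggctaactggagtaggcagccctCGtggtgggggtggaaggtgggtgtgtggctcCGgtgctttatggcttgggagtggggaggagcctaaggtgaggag
Pparg, chr4:150154522-150154771, plus strand: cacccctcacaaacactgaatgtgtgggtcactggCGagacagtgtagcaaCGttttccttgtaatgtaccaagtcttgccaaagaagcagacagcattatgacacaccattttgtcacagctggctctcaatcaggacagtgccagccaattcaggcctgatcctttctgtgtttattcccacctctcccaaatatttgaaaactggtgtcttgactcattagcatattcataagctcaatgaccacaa

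The Rela promoter was the densest, with 48 CpGs in 250 bases, a number that 0.167% of 33469 rat promoter sequences reached. Pdpk1 had 31 and Ptpn2 had 28, reached by 4.68% and 6.79% of promoters. The more CpG-rich of the 2 Pparg starts had 13, reached by 29.4%. The other Pparg start had 2 CpGs, fewer than the 10 that any region of the table holds, so it could not have carried a region inside this window. The letters CCGG, cut by MspI, the enzyme usual in this assay, occurred 4 times before Rela and before the CpG-rich Pparg start, 2 times before Pdpk1 and before Ptpn2, and 0 times before the other Pparg start, and in 46.2% of all promoters. GC boxes (GGGCGG, either strand) occurred in all but that last sequence, with 5 each before Pdpk1 and Ptpn2, and in 30.5% of all promoters. The letters AGGTCA, the half-site that PPARs and other nuclear receptors bind, were on neither strand of these windows, and 14.1% of all promoters held them. CCGG and GGGCGG each contain a CpG, so they are not independent of the CpG counts.

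All 10 regions were sparsely methylated. Their group means ran from 0.176% to 7.57%, single animals from 0% to 11.7%, and 9 of the 100 levels were exactly 0. Coverage was not given with the levels, so the depth is unknown and the spread between animals is the error stated. In paternal high-fat offspring 6 regions had a higher and 4 a lower mean level than in paternal chow offspring, where 71.0% of all 8957 regions were higher. The median difference, paternal high-fat minus paternal chow, was 2.17 percentage points over the 10 regions and 1.41 points over all regions. At 2 of the 10 regions, upstream of Pparg and in an intron upstream of Ppard, every paternal high-fat animal lay above every paternal chow animal. Over all regions, 5.15% had groups that did not overlap, 3.93% with the paternal high-fat group higher. With limma, fitted over all regions, 0 of 8957 regions (0%) passed at an adjusted p of 0.05, and the adjusted p of the 10 regions ran from 0.235 to 0.246. An unadjusted p below 0.05 was found for 6 of the 10 and for 1875 regions in all (20.9%), a share from which nothing is read, since the regions were picked on this contrast. The authors' deposited table gives a q of 1 for each of the 10, while 0.848% of all regions have a deposited q below 0.05.

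**Figure D1:**
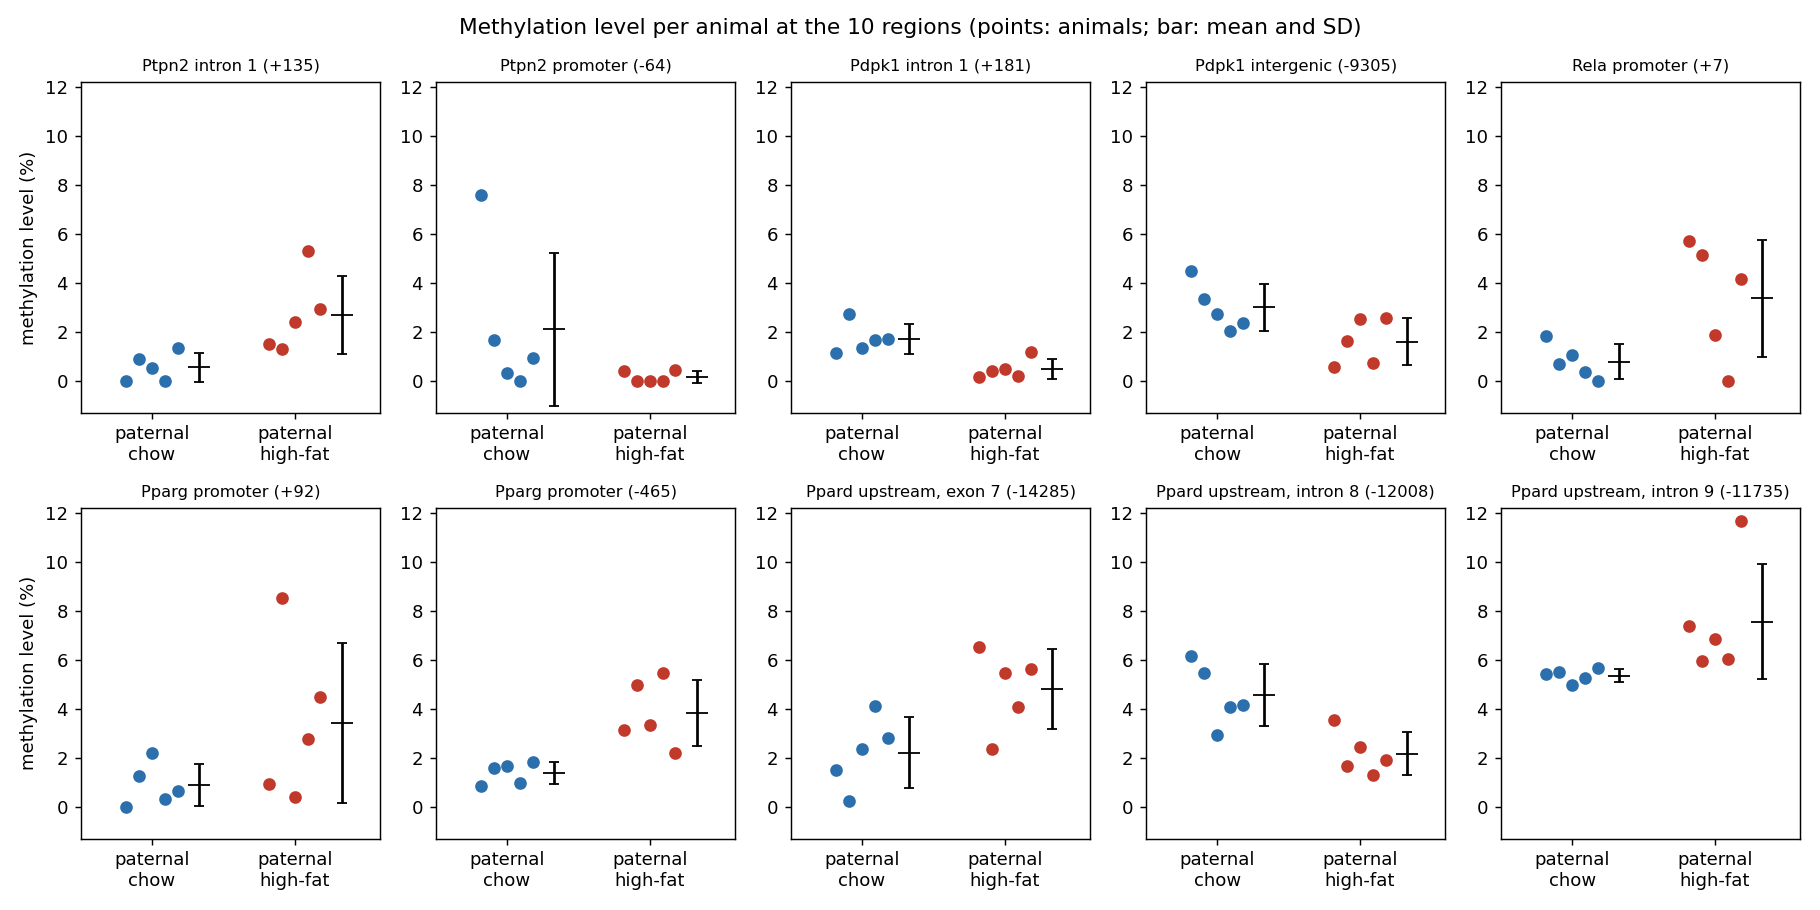
Methylation level in percent (vertical axis) of each animal at the 10 regions, with the distance from the named gene's start site in bases in each title. Points are animals of the paternal chow (blue) and paternal high-fat (red) groups, and black bars give mean and SD (n = 5); the groups are separate only at the Pparg region at −465 and the Ppard region at −11735.

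Ptpn2 (ENSRNOG00000017453), the phosphatase gene, had its regions on either side of the start site, with opposite differences. The region in intron 1 of 9 (chromosome 18, 63487875 to 63487908, 10 CpGs) had levels of 1.51%, 1.30%, 2.39%, 5.32% and 2.95% in the paternal high-fat animals 22HFB, 22HFR, 24HFB, 26HFB and 28HFB. In the paternal chow animals 2HFB, 4HFB, 6HFBB, 6HFB and 8HFB it had 0%, 0.911%, 0.525%, 0% and 1.36%. The groups touched only where 22HFR lay just under 8HFB, and the mean was 2.70% ± 1.61 against 0.559% ± 0.589 (SD, n = 5 each), 2.14 points higher with a standard error of 0.810. The region at the promoter (63488062 to 63488119, 10 CpGs) began 154 bases further on and had 0.417%, 0%, 0%, 0% and 0.465% in the paternal high-fat animals, in the same order. In the paternal chow animals it had 7.59%, 1.67%, 0.333%, 0% and 0.948%. A single chow animal, 2HFB, thus stood far above the others: the difference of −1.93 points (standard error 1.14) was −0.561 points without it, and the groups overlapped.

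Seen animal by animal, the intron was more methylated than the promoter in 5 of 5 paternal high-fat animals, by 1.09 to 5.32 points. In paternal chow animals the promoter was the higher in 2 of 5 and the intron in 2, and 6HFB was at 0 in both. This contrast follows in part from the opposite group differences on which the regions were selected. Opposite directions close together were common in the table: of 2242 neighbouring pairs of regions at most 500 bases apart, 42.4% had them, and of 1987 genes with at least 2 regions, 52.2% had regions in both directions.

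**Figure D2:**
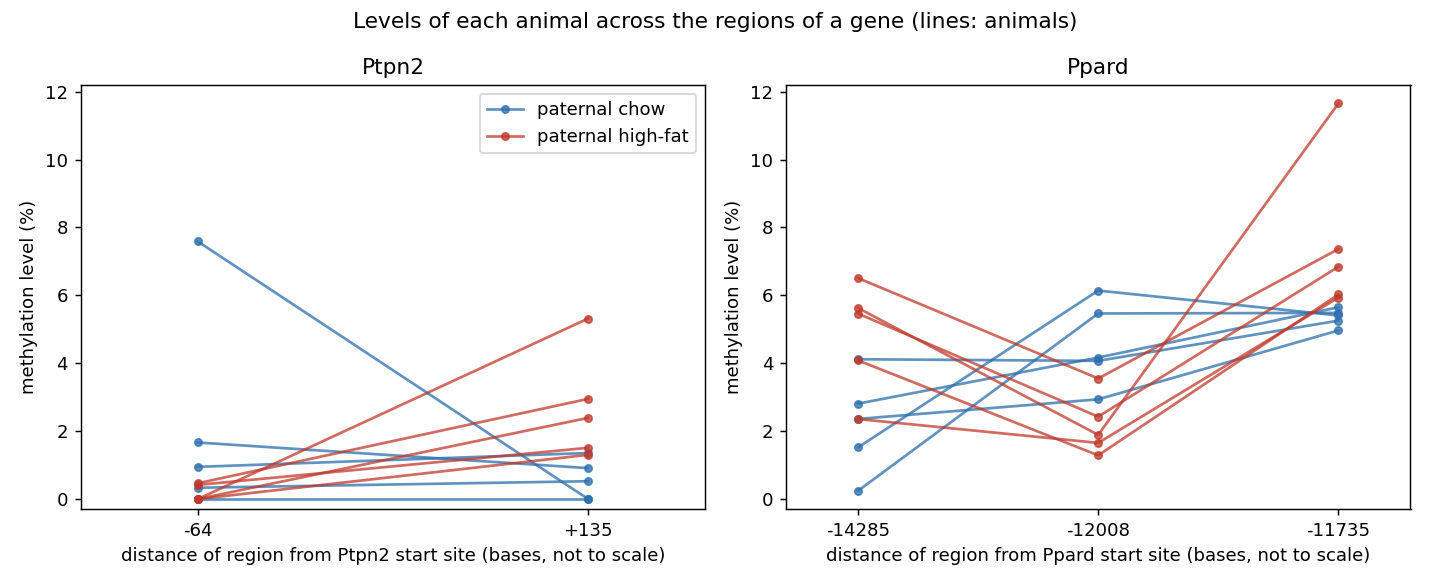
Methylation level in percent of each animal (lines; blue paternal chow, red paternal high-fat) at the regions named for Ptpn2 and Ppard, ordered by distance from the start site in bases and not to scale. For Ptpn2, all 5 red lines go up from −64 to +135; for Ppard, all 5 red lines dip at −12008, where their mean was 2.16% and that of the blue lines 4.56%.

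Pdpk1 (ENSRNOG00000006136), which encodes the kinase that switches on Akt, was lower in paternal high-fat offspring at both of its regions. Of the 1987 genes with at least 2 regions, 6.19% were lower at all of them. The region in intron 1 of 13 (chromosome 10, 13515219 to 13515315), 181 bases after the start, held 21 CpGs. Its level was 0.157%, 0.414%, 0.491%, 0.207% and 1.19% in paternal high-fat animals 22HFB, 22HFR, 24HFB, 26HFB and 28HFB. In paternal chow animals 2HFB, 4HFB, 6HFBB, 6HFB and 8HFB it was 1.13%, 2.72%, 1.33%, 1.68% and 1.73%. Apart from 28HFB, which lay above 2HFB by under 0.1 points, the groups were separate, and the mean of 0.491% ± 0.414 against 1.72% ± 0.612 (SD, n = 5 each) gave a difference of −1.23 points with a standard error of 0.479. This was the smallest difference of the 10, smaller than at most regions of the table, where the median absolute difference was 1.74 points.

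The other Pdpk1 region (13524716 to 13524789, 14 CpGs) was intergenic, 9305 bases before the start, so the file ties it to Pdpk1 by distance. Its levels were 0.583%, 1.64%, 2.52%, 0.722% and 2.57% in the paternal high-fat and 4.51%, 3.33%, 2.75%, 2.04% and 2.39% in the paternal chow animals, in the order above. The ranges overlapped, from 2.04% to 2.57%, and the mean of 1.61% ± 0.947 against 3.004% ± 0.967 (SD, n = 5 each) differed by −1.40 points with a standard error of 0.844. In 10 of 10 animals this intergenic region was the more methylated of the Pdpk1 pair.

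Rela (ENSRNOG00000030888), the p65 gene, had a region of 13 CpGs at its promoter (chromosome 1, 220992753 to 220992800). The paternal high-fat animals 22HFB, 22HFR, 24HFB, 26HFB and 28HFB had 5.74%, 5.13%, 1.88%, 0% and 4.17%. Paternal chow animals 2HFB, 4HFB, 6HFBB, 6HFB and 8HFB had 1.86%, 0.694%, 1.055%, 0.375% and 0%. Of the paternal high-fat animals 4 lay above all chow animals, 24HFB barely so, while 26HFB was at 0 like the lowest chow animal. The mean was 3.38% ± 2.39 against 0.797% ± 0.7104 (SD, n = 5 each), a difference of 2.59 points with a standard error of 1.08. Nearest to it, 16627 bases further on, lay a region named for Sipa1, which encodes a GTPase-activating protein, in intron 7 of 14 (221009427 to 221009498). This neighbour was far more methylated, at 20.3% ± 4.85 against 13.2% ± 3.60 (SD, n = 5 each), also with overlapping groups.

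Pparg (ENSRNOG00000008839), the receptor gene known from fat cell formation, was higher in paternal high-fat offspring at both regions, each annotated as the promoter of a different Pparg transcript. Of the 1987 genes with at least 2 regions, 41.6% were higher at all of them. The region 465 bases before the start of ENSRNOT00000051858 (chromosome 4, 147274829 to 147274909, 10 CpGs) had 3.13%, 4.97%, 3.34%, 5.46% and 2.22% in paternal high-fat animals 22HFB, 22HFR, 24HFB, 26HFB and 28HFB. In paternal chow animals 2HFB, 4HFB, 6HFBB, 6HFB and 8HFB it had 0.851%, 1.56%, 1.67%, 0.973% and 1.83%. The lowest paternal high-fat animal was thus above the highest chow animal, and the mean of 3.82% ± 1.35 against 1.38% ± 0.438 (SD, n = 5 each) differed by 2.44 points with a standard error of 0.880. The difference ran from 2.04 to 2.85 points when any 1 animal was left out.

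The region 92 bases after the start of ENSRNOT00000082969 (147274180 to 147274217, 10 CpGs), 612 bases from the first, was far more variable. Its levels were 0.911%, 8.52%, 0.400%, 2.78% and 4.48% in the paternal high-fat and 0%, 1.25%, 2.20%, 0.333% and 0.625% in the paternal chow animals, in the order above. Only 3 of 5 paternal high-fat animals were above every chow animal, and 22HFR alone moved the difference from 1.26 points without it to 2.53 points with it (standard error 1.34). The animals with the lowest levels of their group here, 24HFB and 22HFB, had 3.34% and 3.13% at the first region.

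The regions named for Ppard (ENSRNOG00000000503), the receptor gene of broad expression that governs fatty acid use, all lay 11735 to 14285 bases before the start of Ppard, inside an annotated transcript, ENSRNOT00000000597, that is not the one whose start was measured from. In RefSeq's gene order the protein-coding gene before Ppard is Def6, and no region of the table is named for Def6. The file does not say which gene that transcript belongs to, and it ties these regions to Ppard by distance. The farthest, in exon 7 of 11 (chromosome 20, 7803961 to 7804047), held 19 CpGs and had 6.51%, 2.36%, 5.46%, 4.09% and 5.63% in paternal high-fat animals 22HFB, 22HFR, 24HFB, 26HFB and 28HFB. In paternal chow animals 2HFB, 4HFB, 6HFBB, 6HFB and 8HFB it had 1.52%, 0.242%, 2.36%, 4.12% and 2.81%. Its groups overlapped through 22HFR and 6HFB, and the mean of 4.81% ± 1.62 against 2.21% ± 1.45 (SD, n = 5 each) gave the largest difference of the 10, 2.60 points with a standard error of 1.08. The same region has the smallest Mann-Whitney p of the 10 in the authors' deposited table, 7.61e-09, beside its q of 1. Ranks of 5 against 5 animals cannot give a p this small, so it does not measure the spread between animals.

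The next region, in intron 8 of 10 (7806084 to 7806478), was the sparsest of the 10, with 10 CpGs over 394 bases, or 2.54 CpGs per 100 bases against a median of 18.2 over all regions. It went the other way, with 3.55%, 1.65%, 2.43%, 1.29% and 1.89% in the paternal high-fat and 6.14%, 5.47%, 2.94%, 4.07% and 4.17% in the paternal chow animals. Only 22HFB, above 6HFBB, kept the groups from being separate, and the mean of 2.16% ± 0.880 against 4.56% ± 1.26 (SD, n = 5 each) differed by −2.39 points with a standard error of 0.939.

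The last Ppard region, in intron 9 of 10 (7806478 to 7806630, 12 CpGs), begins where the intron 8 region ends. Its levels were 7.37%, 5.94%, 6.84%, 6.03% and 11.7% in the paternal high-fat and 5.41%, 5.48%, 4.97%, 5.26% and 5.65% in the paternal chow animals. The chow animals were within 0.7 points of each other, the tightest chow group of the 10 regions (SD 0.259), and all paternal high-fat animals were above them. Animal 28HFB stood apart, and the difference of 2.21 points (standard error 1.26; means 7.57% ± 2.36 and 5.35% ± 0.259, SD, n = 5 each) was 1.19 points without it. Across the shared boundary the level stepped up by 3.81 to 9.76 points in each of the 5 paternal high-fat animals, while in the paternal chow animals the step ran from −0.733 to 2.03 points. From the exon to intron 8 the level fell in 5 of 5 paternal high-fat animals and rose in 4 of 5 paternal chow animals. These steps follow in part from the opposite group differences on which the regions were selected, so they are no separate support. Of 113 pairs of regions in the table that share a boundary, 38.1% had opposite directions.

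**Figure D3:**
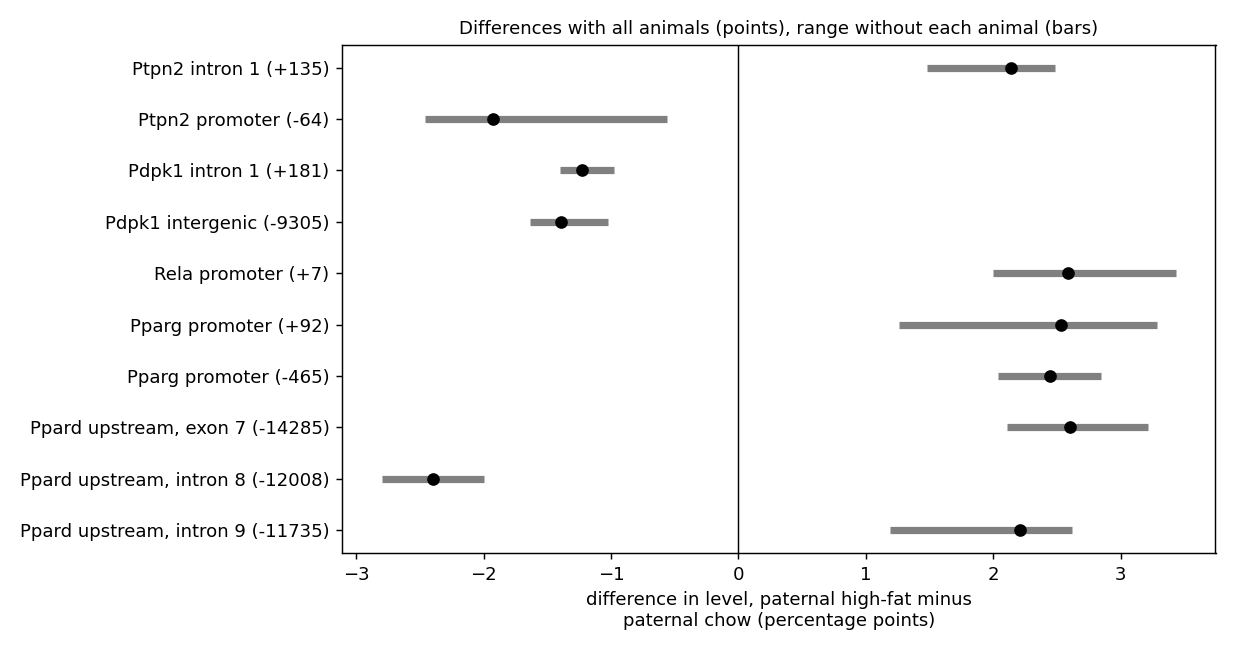
Difference in methylation level, paternal high-fat minus paternal chow in percentage points, at the 10 regions with all animals (points) and its range when each of the 10 animals was left out in turn (bars). No bar crosses 0, from which nothing is read, since the regions were selected on a difference between these groups. The widest bars belong to the Pparg region at +92, from 1.26 to 3.29 points, and the Ptpn2 promoter, from −2.46 to −0.561 points.

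Ordered by level in paternal chow offspring, the Ptpn2 intron (0.559%), Rela (0.797%) and the Pparg region after the start (0.882%) were lowest, and neighbours among them differed by less than their SDs. The Pparg upstream region (1.38%), the Pdpk1 intron (1.72%), the Ptpn2 promoter (2.11%) and the exon 7 region upstream of Ppard (2.21%) followed, again each within an SD of the next. The Pdpk1 intergenic region (3.004%) and the intron 8 and intron 9 regions upstream of Ppard (4.56% and 5.35%) were highest. In paternal high-fat offspring the order began with the Ptpn2 promoter (0.176%) and the Pdpk1 intron (0.491%), which were within an SD of each other. The Pdpk1 intergenic region (1.61%), the intron 8 region upstream of Ppard (2.16%), the Ptpn2 intron (2.70%), Rela (3.38%), the Pparg regions (3.42% and 3.82%) and the exon 7 region upstream of Ppard (4.81%) followed, each within an SD of the next. The intron 9 region upstream of Ppard (7.57%) was highest in both groups. As a ratio of the higher to the lower group mean, the groups differed least at the intron 9 region upstream of Ppard, by 1.41-fold, and most at the Ptpn2 promoter, by 11.9-fold, where 2HFB decided the size. The ratio was 4.25-fold at Rela and 4.82-fold at the Ptpn2 intron. Against all regions, the absolute differences were of middling size, between the percentiles 20.7 (Pdpk1 intron) and 76.1 (exon 7 region upstream of Ppard). The larger group SD exceeded the difference at 3 of the 10 regions, the Ptpn2 promoter, the Pparg region after the start and the intron 9 region upstream of Ppard, and at 65.8% of all regions.

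**Figure D4:**
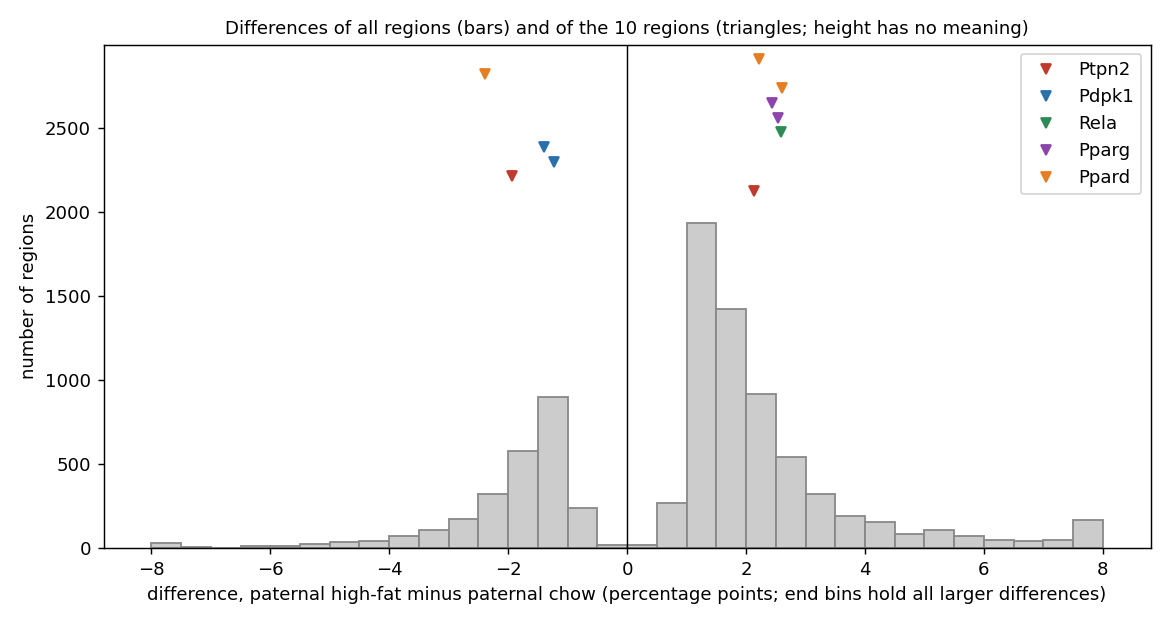
Number of regions (vertical axis) by difference in methylation level, paternal high-fat minus paternal chow in percentage points, for all 8957 regions in bins of 0.5 points (bars), with the 10 regions as triangles coloured by gene. The 10 regions fall between −2.39 and 2.60 points, within the bulk of both sides of the distribution.

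The animals differed in level over the whole table as well. The mean over all regions was 6.48% to 8.24% in paternal high-fat and 5.72% to 6.46% in paternal chow animals, highest in 22HFR, the animal that led at the Pparg region after the start. At the 10 regions, 22HFR was alone the lowest of its group at 3 and the highest at 1. At 4 regions 28HFB led the paternal high-fat group, and 2HFB was the highest of the chow animals at 4 and alone the lowest at 3. The part of this general shift in the differences at the 10 regions was not tested. With the median difference of all regions, 1.41 points, subtracted, 6 regions were higher and 4 lower. That count could not change, because each of the 6 higher regions differed by more than 1.41 points.

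By the similarity of levels over the 10 animals (Pearson's r, among 8838 regions with complete values, given as a description since the group difference is part of it), the region closest to the Ptpn2 intron was an exon region of Iqsec3 (r = 0.954). Closest to the Pdpk1 intergenic region was an intron region of G3bp1 (r = 0.936). For Rela it was an intron region of Zfp704 (r = 0.957). The Pparg region after the start was most similar to the promoter of Npas2, a circadian transcription factor gene (r = 0.968), and the exon 7 region upstream of Ppard to an intergenic region named for Ccdc28a (r = 0.928).

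Other genes of the same pathways were counted from lists written down with earlier results known and with the 5 genes left out. Of 37 insulin and PI3K genes, 22 had 47 regions, of which 32 were higher and 15 lower after a paternal high-fat diet, with a median difference of 1.23 points. The regions of this list with the smallest limma p were at the promoter of Rheb, the GTPase that activates mTOR, with 2.98% ± 1.88 against 0.513% ± 0.810, and at the promoter of Pik3cb, a catalytic PI3K subunit, with 0.330% ± 0.320 against 2.08% ± 1.64 (SD, n = 5 each). Of 23 leptin and Jak-Stat genes, 10 had 17 regions, 11 higher and 6 lower, with a median of 1.09 points. The promoter of Jak2, the kinase bound to the leptin receptor, had 0.452% ± 0.307 against 3.64% ± 3.29, and that of Socs2, a feedback inhibitor of cytokine signalling, had 3.60% ± 1.44 against 1.35% ± 1.20 (SD, n = 5 each). Neither pair of groups was separate.

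Of 29 NF-kB pathway genes, 11 had 18 regions, evenly 9 higher and 9 lower, with a median difference of 0.00237 points. They included exon 1 of Ripk1, a kinase below the tumour necrosis factor receptor, at 0.907% ± 0.520 against 3.25% ± 2.36, and an intergenic region 1201 bases before the start of Nfkb2, an NF-kB subunit gene, at 3.78% ± 2.30 against 1.49% ± 1.27 (SD, n = 5 each). Of 45 PPAR and lipid genes, 16 had 26 regions, 19 higher and 7 lower, with a median of 1.37 points. The promoter of Ppara, the third PPAR gene, had 2.10% ± 0.7103 against 0.738% ± 0.613 (SD, n = 5 each). No region of the 4 lists passed limma's test, and 0 of all 8957 regions did. Groups did not overlap at 1 of 17 leptin and 1 of 26 PPAR regions, both higher, and at 0 insulin and 0 NF-kB regions. Over all regions 5.15% had such groups, 3.93% with the paternal high-fat group higher. Higher regions made up 68.1% of the insulin, 64.7% of the leptin, 50% of the NF-kB and 73.1% of the PPAR regions, against 71.0% of all regions. No list was compared with another by a test.

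Markers of other cells that a dissection can hold were counted in the same way; the table holds selected regions, so the tissue itself could not be checked by them. Oligodendrocyte genes had a region at 5 of 15 genes, 5 higher and 2 lower (71.4% higher, against 71.0% of all regions). Their mean levels per animal were 19.2% to 22.8% in paternal high-fat and 15.3% to 19.4% in paternal chow animals. The 2 regions of this list with the smallest limma p were both higher. An exon of Mbp, the myelin basic protein gene, had 71.3% ± 7.51 against 56.98% ± 9.98, and the promoter of Mal 5.91% ± 3.62 against 2.39% ± 1.22 (SD, n = 5 each). The mean levels per animal include that highly methylated Mbp exon. Astrocyte and tanycyte genes had a region at 2 of 14 genes, 4 higher and 1 lower (80% higher), and mean levels per animal of 3.91% to 5.89% against 3.13% to 4.69%. Smallest in limma p among them were the last exon of Rax (2.07% ± 0.868 against 0.653% ± 0.404) and the promoter of Sox9 (4.96% ± 1.12 against 2.75% ± 1.49, SD, n = 5 each), both higher. Of 12 microglia genes 1 had a region, C1qa, at 70.2% ± 5.13 against 74.1% ± 5.25, and of 17 vessel, blood and pituitary genes 1, Kdr, at 2.07% ± 1.72 against 0.341% ± 0.471 (SD, n = 5 each). The part of cell makeup in the differences at the 10 regions was not tested.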

How the data were processed

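The analysis started from a single deposited table. Trim Galore, Bismark and Bowtie are the read tools named, per the submitters' processing notes, and per the file headers regions were called with metilene on the paternal high-fat against the paternal chow group; their versions and settings, the coverage filter and the genome build are not given in the sources. The deposited values are the average methylation fraction per region and animal, group mean fractions, p-values and q-values, and the count of CpGs per region, all by the authors. The distances to start sites and gene names are also the authors'. Every region held at least 10 CpGs and a deposited difference of at least 1 percentage point. Coordinates are printed as deposited, without knowledge of whether starts count from 0 or 1.

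Fractions were multiplied to percent. Columns carry animal names without a replicate number and stand under a header that gives their group, which made 5 unnumbered replicates in each; 0 other columns of levels were present. Of 89570 levels 127 were missing, none at the members. The submitters label the samples as separate, and p-values reflect only the spread among them, which may be partly technical. Levels of all 8957 regions were compared with limma 3.58.1 in R 4.3.3 (trended empirical Bayes, Benjamini-Hochberg adjustment), tested on simulated data beforehand. Standard errors are limma's. Named were all regions of the 5 genes, regions of other genes within 20000 bases of them (the nearer Sipa1 region is described, the other had 38.2% ± 5.94 against 33.9% ± 2.77, SD, n = 5 each), the 2 regions of each list with the smallest limma p (1 region of the PPAR list is not reported here), and the regions most correlated with the region of each gene of largest difference, of which the first of 3 is given. The members and lists were chosen with earlier results of these data known. Alternatives were medians, the authors' group means, a logit scale with an offset of 0.01, other variance models, stricter filters, leaving out each animal and averaging columns that share a leading number. Sequences came from RefSeq (GRCr8), where all 5 genes matched by symbol. Python 3.11.15, pandas 2.3.3 and matplotlib 3.10.9 were used.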

Additional observations from a re-analysis of the deposited data

Results flagged for a closer look

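Among the 50 groups of 5 animals behind the named regions, 2 held an animal far from the other 4, where chance alone gives about 1 group in 20 under Dixon's test; both were among the 20 groups of the 10 regions. At the Ptpn2 promoter the paternal chow animal 2HFB had 7.59%, and the next highest had 1.67%. In the intron 9 region upstream of Ppard the paternal high-fat animal 28HFB had 11.7%, and the next highest had 7.37%.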

How the results depend on the processing

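The numbers of higher and lower regions among the 10 stayed at 6 and 4 with medians and with the authors' group means. They also did so relative to the median of all regions, with columns of the same leading number averaged, and without each animal. Nothing is read from this, since the regions were selected on a difference between these groups. The number with groups that did not overlap was 2 to 3 without each animal, where 7.48% to 9.79% of all regions had such groups, and 5 with those columns averaged, where 14.9% of all regions had. The averaging was chosen after the column names were seen and leaves 4 values per group. Single animals moved a difference by over 1.5 times at 3 regions, given above: 2HFB at the Ptpn2 promoter, 22HFR at the Pparg region after the start and 28HFB at the intron 9 region upstream of Ppard. Medians in place of means gave −0.948 points at the Ptpn2 promoter and 1.44 points at the intron 9 region upstream of Ppard. The limma count over all regions was 0 under every alternative run, with a smallest adjusted p of 0.0833 without a mean-variance trend and 0.0947 on the logit scale, and 1392 to 2294 regions at an unadjusted p below 0.05 in fits over all regions. Some list counts fell when limited to regions within 5000 bases of a start. Those of the astrocyte and tanycyte, the microglia and the vessel, blood and pituitary lists did not change. The NF-kB list went from 9 higher and 9 lower to 6 and 8, so its even split was lost. The insulin list went from 32 and 15 to 26 and 12, and the leptin list from 11 and 6 to 11 and 4. The PPAR list went from 19 and 7 to 15 and 7, and the oligodendrocyte list from 5 and 2 to 4 and 1. No paired analysis was possible because the columns carry no replicate numbers. Depth is unknown, so how far a level of 0 or of 1% is limited by coverage cannot be stated.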
